A study of Mus musculus with 15 samples.

Results

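The 93 genes described here encode nuclear subunits of the mitochondrial respiratory chain and ATP synthase, with 8 assembly factors that share the naming stem of complex I. They were taken as every gene measured by a probe on a RefSeq transcript whose symbol starts with Ndufa, Ndufb, Ndufc, Ndufs, Ndufv, Uqcr, Cox4i, Cox5, Cox6, Cox7, Cox8 or Atp5, or equals Sdha, Sdhb, Sdhc, Sdhd or Cyc1, without pseudogenes. They had 117 probes of the 56605 on the array and made up 93 of the 23462 genes named there. By complex, they were 7 core subunits, 29 accessory subunits and 8 assembly factors of complex I, 4 subunits of complex II, 9 of complex III, 19 of complex IV and 17 of ATP synthase.

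Mouse embryonic fibroblasts (MEFs) of the established line Balb/c/3T3, clone A31, were measured on 15 one-color oligonucleotide arrays, 3 for each of 5 groups. Control MEFs received no cytokine, and all groups were kept in the same medium with serum. The treated groups received 10 ng/ml of TNFα, 5 ng/ml of TGFß1, 1 ng/ml of IL-1β, or 20 ng/ml of IL-6 given together with 25 ng/ml of its soluble receptor sIL-6Rα. The stimulation lasted 24 h on the TNFα and TGFß1 arrays and their controls, while for the IL-1β and IL-6 arrays the labels give 24 or 72 h without saying which. All groups came from 1 immortalized clone, so the arrays carry no variation between animals, and p-values describe the spread between arrays of that line. Arrays are called by their group and the number that opens their label (control 1, 6 and 11, for example).

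The respiratory chain moves electrons from NADH (complex I) and succinate (complex II) through complex III and cytochrome c to oxygen at complex IV, and ATP synthase uses the proton gradient that results. Each complex except complex II combines subunits encoded in mitochondrial DNA, which were not analysed here, with a larger number encoded in the nucleus. Several complex IV subunits exist as paired isoforms, a form found in most tissues and a form best known from muscle, brown fat, testis, lung or cells short of oxygen.

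Values below are log2 processed signal minus the 75th percentile of the same array, so 1 unit is a 2-fold difference in signal. They compare groups for the same probe and never levels between genes. A gene with several probes is given by its brightest probe. A probe was tested when all 3 arrays of some group read it well above background, which 91 of the 93 genes passed. The exceptions were Cox8b, the muscle form of a small complex IV subunit, and Cox8c, its testis form, which were not well above background on any array. Of the 91 genes, 89 were well above background on all 15 arrays, while Cox7b2 was on 9 arrays and Ndufa4l2 on 7. A member is called when the limma q-value over all probes is under 0.05 and the change is at least 1.5-fold.

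All 9 fibroblast markers were well above background on all 15 arrays. Not well above background on any array were Ptprc, Adgre1 and Tyrobp of the leukocyte markers, Cdh5, Kdr and Tek of the endothelial markers, Cdh1 of the epithelial markers, Ckm, Myh1, Actn2 and Ryr1 of the muscle markers, and Ucp1 and Cidea of the adipocyte markers. Of the same lists, Cd68, Itgam and Cd3e (leukocyte), Pecam1 (endothelial), Myh7 (muscle) and Fabp4 (adipocyte) were well above background on all 15 arrays. Fabp4 was called lower with TNFα and with TGFß1 (below), and none of the others was called in either comparison. The arrays lay on 2 slides. Slide 1 held control 1 and 11, TNFα 14, TGFß1 7, IL-1β 5 and 10 and IL-6 3 and 8, and slide 2 held the others. The signal at the 75th percentile ranged from 508 to 683, and no spot was saturated.

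Most respiratory chain genes lay close to their control level under every cytokine. With TNFα, 3 of 91 members were lower and 0 higher (12.7% of all 13523 named genes tested were called in either direction, 4.61% higher and 8.05% lower). With TGFß1, 4 members were lower and 1 higher (21.2% of all named genes in either direction, 8.51% higher and 12.7% lower). With IL-1β no member was called by limma (0.355% of named genes) and 1 had an unadjusted p under 0.05. With IL-6 none was called (0.0961% of named genes), and 0 had an unadjusted p under 0.05. The 4 comparisons used the same 3 control arrays, so their values are given side by side without a measure of likeness between them.

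The sizes of the differences were small as well. The median of the absolute log2 fold-change over the 91 members was 0.12 with TNFα and 0.14 with TGFß1, against 0.26 and 0.33 over all named genes. It was 0.04 with IL-1β and 0.04 with IL-6, against 0.09 and 0.08. The median standard error was 0.14 for members and 0.17 for all named genes. With TNFα the 95% interval of the change stayed within 1.5-fold in either direction for 67 members (73.6%), against 42.9% of all named genes. With TGFß1 it did so for 70 members (76.9%), against 35.1%. With IL-1β and IL-6 it did so for 80 and 82 members (87.9% and 90.1%), against 64% and 64.6%. These shares describe how narrowly the changes of most members were bounded, and the other members had intervals that reached 1.5-fold.

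**Figure D1:**
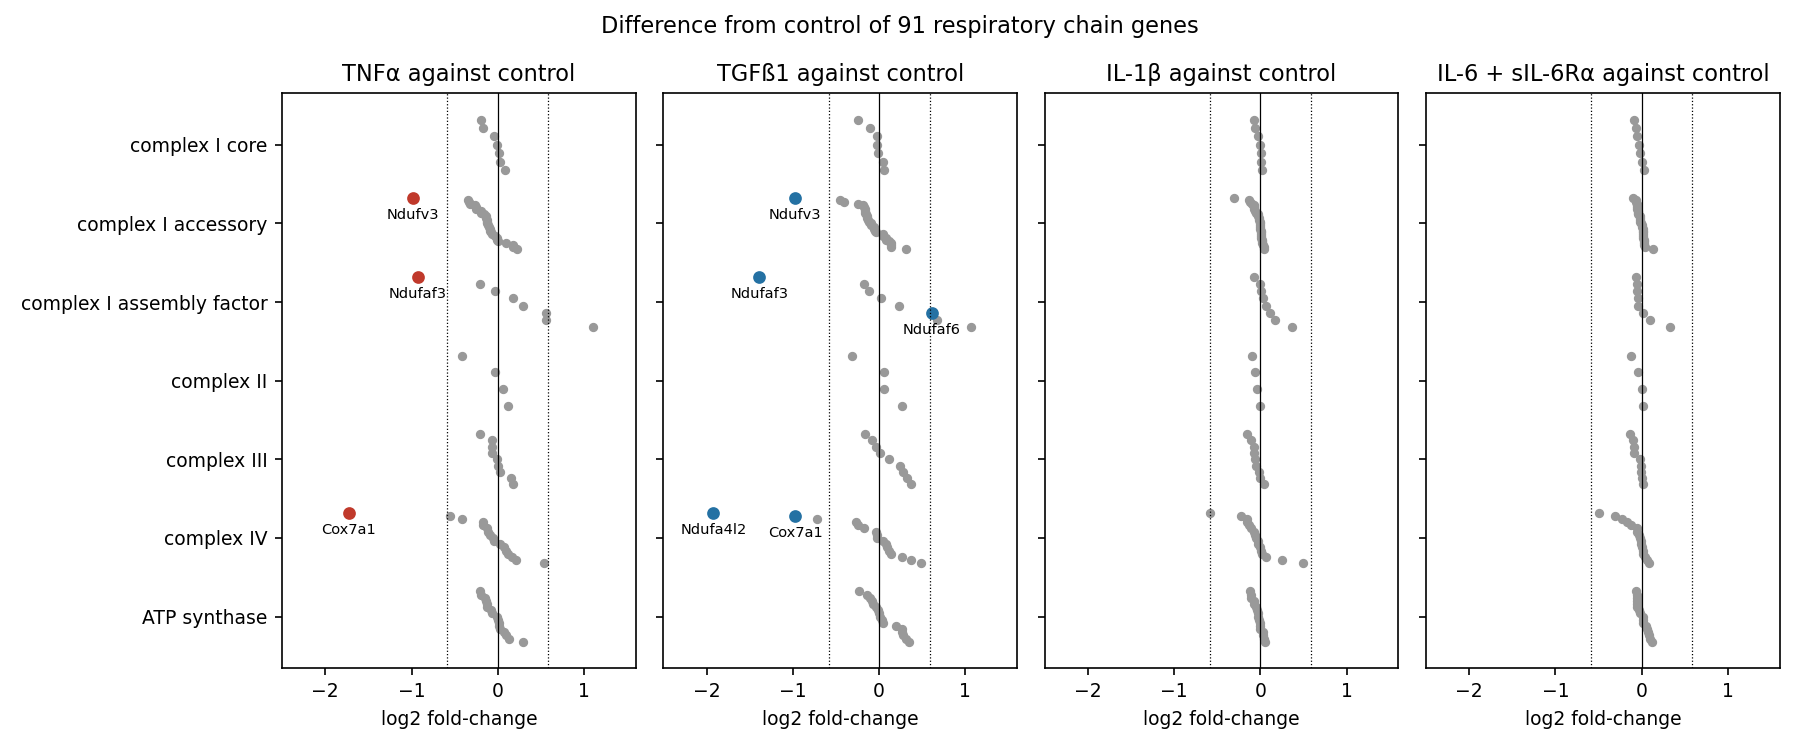
Each point is 1 of the 91 tested genes, placed by its log2 fold-change against control (horizontal axis) and grouped by complex (rows, ordered by fold-change within a row), with 1 panel per cytokine. Colored and named points were called, and dotted lines mark 1.5-fold. The called genes were Cox7a1, Ndufv3 and Ndufaf3 with TNFα, and those 3 with Ndufa4l2 and Ndufaf6 with TGFß1.

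The 5 called members were 2 assembly factors of complex I (Ndufaf3 and Ndufaf6), 1 accessory subunit of complex I (Ndufv3) and 2 genes of complex IV (Cox7a1 and Ndufa4l2). The assembly factors numbered 8, with log2 fold-changes from -0.93 to 1.10 with TNFα and from -1.39 to 1.06 with TGFß1. The 17 tested genes of complex IV ran from -1.73 to 0.54 and from -1.92 to 0.48. Differences between the complexes were not tested. Among the 7 core subunits of complex I, which carry the flavin and iron-sulfur clusters, no change passed the test and the log2 fold-changes ran from -0.20 to 0.08 with TNFα and from -0.25 to 0.06 with TGFß1. Among the 9 members of complex III, 0 were called, with ranges of -0.21 to 0.18 and -0.16 to 0.37. Among the 17 subunits of ATP synthase, 0 were called, with ranges of -0.21 to 0.29 and -0.23 to 0.35. The 29 accessory subunits of complex I had a median of -0.12 with TNFα, where 5 lay above 0, and -0.10 with TGFß1, where 9 did, and Ndufv3 was the member called there. TNFα and TGFß1 each had 2 of 3 arrays on slide 2 and the controls 1 of 3, and most members read lower on slide 2 (below). With the slide as a block these medians were -0.07 (7 above 0) and -0.03 (12 above 0). Over all members the median log2 fold-change was -0.07 with TNFα, -0.03 with TGFß1, -0.02 with IL-1β and -0.02 with IL-6. Over all named genes it was 0.00, 0.05, -0.01 and -0.01. The member medians had no settled direction, since without control 6 they were -0.15, -0.11, -0.11 and -0.11 and without control 11 they were 0.02, 0.07, 0.06 and 0.06.

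Members whose 3 treated arrays did not overlap the 3 controls were counted as well. With TNFα, 7 members were higher on all 3 arrays than on every control array and 7 were lower, while 34.6% of named genes did not overlap in either direction. With TGFß1 the counts were 14 and 9, against 45.5% of named genes. With IL-1β they were 1 and 0, against 6.23%, and with IL-6 they were 0 and 0, against 6.08%. An F-test over the 5 groups passed for 6 of 91 members, against 32.4% of named genes, and these were Ndufaf3, Cox7a1, Ndufv3, Ndufa4l2, Cox5a and Ndufaf6. Of these, Ndufa4l2 was tested only through IL-1β, the group where it was highest (below). With slide and run of label numbers (described below) as blocks the F-test passed for 26 members (28.6%), against 67.1% of named genes.

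Cox7a1 encodes the form of complex IV subunit 7a that is best known from heart, skeletal muscle and brown fat, and it had the largest fall of any member with TNFα. Its level was -0.57, -0.04 and -0.03 on control arrays 1, 6 and 11. On TNFα arrays 4, 9 and 14 it was -2.09, -1.87 and -1.87, and on TGFß1 arrays 2, 7 and 12 it was -1.39, -0.83 and -1.33. Every array of both treatments lay below every control array, and TNFα arrays lay below TGFß1 arrays. It was -1.17, -0.27 and -0.97 on IL-1β arrays 5, 10 and 15 and -0.58, -0.09 and -0.68 on IL-6 arrays 3, 8 and 13, and both of these groups overlapped the controls. The log2 fold-change was -1.73 with TNFα (SE 0.25, limma q = 0.000728), a 3.31-fold fall, and -0.97 with TGFß1 (SE 0.25, limma q = 0.014). With IL-1β it was -0.59 (95% interval -1.13 to -0.04, limma q = 1) and with IL-6 -0.23 (-0.78 to 0.31).

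Compared directly, Cox7a1 was lower with TNFα than with IL-1β by 1.14 log2 units (limma q = 0.0198, 6.51% of named genes were called in that comparison). That call was lost without TNFα 4, 9 or 14 or IL-1β 10, with q from 0.0504 to 0.0853. The difference between TNFα and TGFß1 was -0.76 (limma q = 0.0616). With the slide as a block that q was 0.0413, past the threshold. Within slide 1 the difference from control was -1.57 with TNFα and -0.53 with TGFß1, and within slide 2 it was -1.93 and -1.32. The slide 1 values rest on TNFα 14 and TGFß1 7 alone, and the slide 2 values on control 6 as the only control. The TGFß1 call was lost when control 6, control 11, TGFß1 2 or TGFß1 12 was left out, with q from 0.0504 to 0.059.

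Markers of several cell types were called in the same comparisons as Cox7a1, adipocyte markers among them. All 3 that could be tested fell with TNFα, namely Adipoq (-4.44, limma q = 4.78e-05, with 1 of 3 TNFα arrays well above background), Fabp4 (-3.23) and Plin1 (at least 2.93-fold, with 0 of 3 TNFα arrays well above background), and with TGFß1 1 of 3 fell, Fabp4 (-1.50, limma q = 0.0094). The summed level of all 5 adipocyte markers, relative to the 75th percentile, was 3.47 to 4.44 in controls and 0.322 to 0.543 with TNFα. It was 1.03 to 2.35 with TGFß1, 2.67 to 5.00 with IL-1β and 2.93 to 5.47 with IL-6. Such a sum is led by its brightest probe, which was Fabp4. The brown fat markers Ucp1 and Cidea were not well above background on any array. Of 3 muscle markers tested, Tnni2 fell with TNFα (-1.97, limma q = 0.0399). The summed muscle level was 0.220 to 0.350 in controls, 0.165 to 0.232 with TNFα, 0.223 to 0.272 with TGFß1, 0.215 to 0.284 with IL-1β and 0.332 to 0.350 with IL-6. Of 9 fibroblast markers, 4 fell with TNFα (Col3a1 by 2.17, with Col1a1, Col1a2 and Thy1). The summed level of all 9 was 1220 to 1450 in controls and 812 to 1010 with TNFα, led by S100a4, which was not called with TNFα. With TGFß1, 2 of them rose (Pdgfrb and Fn1) and 2 fell (S100a4 and Pdgfra), at a summed level of 1110 to 1510. The epithelial keratin Krt8 was called higher with TGFß1 (measured difference 2.17, limma q = 0.0176). It was well above background on 0 of 3 control arrays and 3 of 3 TGFß1 arrays. Krt8 was thus tested only through its highest group, against a control level that is only a bound. The summed epithelial level was 0.0414 to 0.122 in controls and 0.142 to 0.380 with TGFß1. The part of these markers in the fall of Cox7a1 was not tested, and in bulk RNA fewer cells of a type and less RNA per cell cannot be told apart.

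Ndufv3 encodes a small accessory subunit that sits beside the NADH-binding flavoprotein of complex I, and it fell with both TNFα and TGFß1. Its level was 6.21, 6.34 and 6.34 on the control arrays. It was 5.08, 5.47 and 5.40 with TNFα and 5.18, 5.56 and 5.22 with TGFß1. All 6 treated arrays lay below all 3 controls. It was 5.67, 6.39 and 5.91 with IL-1β and 6.10, 6.68 and 6.17 with IL-6, and both overlapped the controls. The log2 fold-change was -0.98 with TNFα (SE 0.20, limma q = 0.00692) and -0.98 with TGFß1 (SE 0.20, limma q = 0.00418). With IL-1β it was -0.31 (95% interval -0.75 to 0.13) and with IL-6 0.02 (-0.42 to 0.46). The difference between TNFα and TGFß1 was -0.01 (-0.44 to 0.43). The other subunits of the flavoprotein module, Ndufv1 and Ndufv2, are among the 7 core subunits that did not pass the test.

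Ndufaf3 encodes a mitochondrial factor needed to build complex I that does not stay in the finished enzyme, and it had the lowest q of any member with TGFß1. Its level was -1.13, -1.06 and -0.75 on the control arrays. It was -2.07, -2.14 and -1.53 with TNFα and -2.36, -2.26 and -2.48 with TGFß1. Both treatments lay below all controls, and TGFß1 arrays lay below TNFα arrays. It was -1.14, -0.73 and -1.26 with IL-1β and -1.14, -0.68 and -1.30 with IL-6, which overlapped the controls. The log2 fold-change was -0.93 with TNFα (SE 0.21, limma q = 0.0107) and -1.39 with TGFß1 (SE 0.21, limma q = 0.000531), a 2.61-fold fall. It was -0.07 with IL-1β (95% interval -0.51 to 0.38) and -0.06 with IL-6 (-0.51 to 0.39). Ndufaf3 was lower with TNFα than with IL-1β by 0.87 (limma q = 0.0286), a call that was lost without TNFα 4 or 9 or IL-1β 5 or 10 (q from 0.0543 to 0.141). The difference between TNFα and TGFß1 was 0.45 (limma q = 0.18). Without TNFα 4 the TNFα call was lost (q = 0.0522).

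**Figure D2:**
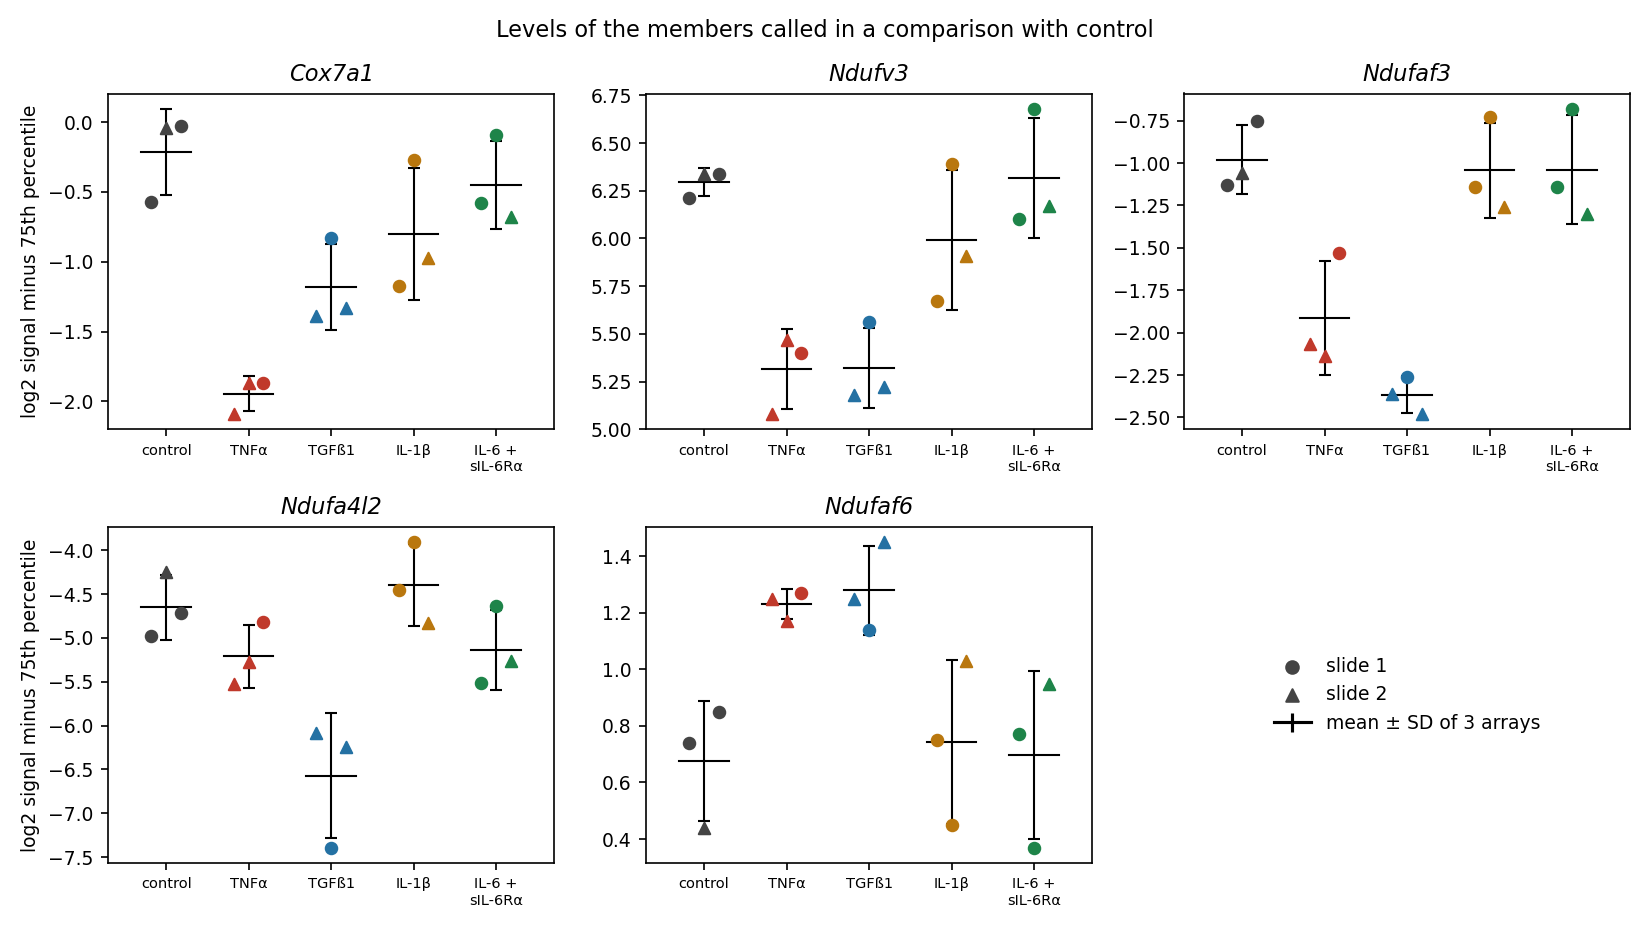
Each point is 1 array and gives the log2 signal minus the 75th percentile (vertical axis, a scale of its own for each gene) of a member called against control, by group (horizontal axis). Circles are slide 1, triangles slide 2, and lines with bars are the mean ± SD of 3 arrays. For Cox7a1, Ndufv3 and Ndufaf3 the TNFα and TGFß1 arrays lie below the controls on both slides, and for Ndufaf6 they lie above.

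Promoter sequences are shown for Cox7a1, Ndufaf3 and Ndufv3, the 3 members that were lower with both TNFα and TGFß1. RefSeq promoters (build GRCm38.p6) were found for 75 of the 93 genes, with 80 entries among 32851, and none was held for Ndufa4l2 or Ndufaf6. The 250 bases before the start site were searched on both strands for CGCATGCG (the core read by nuclear respiratory factor 1), CCGGAAG (ETS factors such as GABP), AAGATGGC (YY1), ACGTG (the core read by hypoxia-inducible factors), GGGCGG (GC box), GGACTTTCC (NF-kB) and GTCTAGAC (SMAD). Capitals mark matches to any of the first 5 of these. The stretches are chr7:30183921-30184170 on the plus strand for Cox7a1, chr9:108567437-108567686 on the minus strand for Ndufaf3 and chr17:31519865-31520114 on the plus strand for Ndufv3, each written 5′ to 3′ toward the start.
Cox7a1: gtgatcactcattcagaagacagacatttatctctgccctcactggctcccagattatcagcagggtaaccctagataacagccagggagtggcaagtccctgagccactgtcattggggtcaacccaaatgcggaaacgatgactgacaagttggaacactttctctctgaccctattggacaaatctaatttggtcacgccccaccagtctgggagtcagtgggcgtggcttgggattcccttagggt
Ndufaf3: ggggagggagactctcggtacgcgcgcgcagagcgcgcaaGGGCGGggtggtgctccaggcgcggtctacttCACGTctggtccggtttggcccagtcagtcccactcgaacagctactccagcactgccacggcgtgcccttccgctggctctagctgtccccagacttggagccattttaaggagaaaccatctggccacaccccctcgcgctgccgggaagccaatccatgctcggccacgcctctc
Ndufv3: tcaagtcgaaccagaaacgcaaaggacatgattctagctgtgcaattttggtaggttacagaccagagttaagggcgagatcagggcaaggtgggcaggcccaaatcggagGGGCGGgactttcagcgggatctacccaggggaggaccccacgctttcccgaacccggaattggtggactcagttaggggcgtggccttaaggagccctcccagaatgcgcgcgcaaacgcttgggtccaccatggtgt
The Ndufaf3 stretch held 1 GC box and 1 ACGTG, the Ndufv3 stretch held 1 GC box, and the Cox7a1 stretch held none of these letters.

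Across the members, the letters read by nuclear respiratory factor 1, a known activator of respiratory chain genes, stood in 8 of 80 promoters (10%), against 1.55% of all 32851. CCGGAAG was in 14 (17.5%, against 6.91%) and AAGATGGC in 1 (1.25%, against 1.56%). ACGTG was in 16 (20%, against 16.6%) and GGGCGG in 31 (38.8%, against 32.7%). GGACTTTCC and GTCTAGAC were in 0 member promoters, against 0.283% and 0.167% of all. The stretches around these 8 matches are shown as the members' examples of that sequence. None of their genes was called, although Ndufaf4 passed with the slide as a block (below). They are chr2:36049339-36049398 (minus), chr4:24897946-24898005 (plus), chr5:108434414-108434473 (minus), chr5:115349085-115349144 (minus), chr9:44920933-44920992 (minus), chr15:102671054-102671113 (minus), chr16:84835089-84835148 (minus) and chr17:56717678-56717737 (plus), each of 60 bases with the motif in capitals.
Ndufa8: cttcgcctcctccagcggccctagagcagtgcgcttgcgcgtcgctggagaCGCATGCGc
Ndufaf4: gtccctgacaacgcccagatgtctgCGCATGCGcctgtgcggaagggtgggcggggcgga
Atp5k: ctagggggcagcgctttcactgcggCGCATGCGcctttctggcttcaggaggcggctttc
Cox6a1: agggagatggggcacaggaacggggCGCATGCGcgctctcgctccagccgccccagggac
Atp5l: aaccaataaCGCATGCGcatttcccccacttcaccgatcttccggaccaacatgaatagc
Atp5g2: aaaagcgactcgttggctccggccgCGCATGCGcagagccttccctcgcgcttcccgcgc
Atp5j: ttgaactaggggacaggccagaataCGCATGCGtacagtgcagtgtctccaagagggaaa
Ndufa11: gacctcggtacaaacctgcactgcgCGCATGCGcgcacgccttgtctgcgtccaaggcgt
A match describes the letters of a window and does not show that a factor binds there.

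Ndufa4l2 encodes a relative of the complex IV subunit Ndufa4 that is known to be induced when oxygen is short, and it was lower with TGFß1. It was dim, at -4.98, -4.25 and -4.72 on the control arrays, of which 2 were well above background. With TGFß1 it was -6.09, -7.39 and -6.24, and 0 of 3 arrays were well above background. With TNFα it was -5.53, -5.28 and -4.82, with IL-1β -4.45, -3.91 and -4.83, and with IL-6 -5.52, -4.64 and -5.26. All 3 TGFß1 arrays lay below all 12 others. IL-1β, where it was highest, was the only group with all 3 arrays well above background, so Ndufa4l2 was tested through its highest group, and it was not tested in a fit of the 6 control and TGFß1 arrays. The measured difference from control was -1.92 (SE 0.37, limma q = 0.00266). Since the TGFß1 level is only a bound, the TGFß1 arrays were also taken at the lowest signal that was well above background on each. That gave 1.65-fold lower than control, which is not a strict lower limit, as only 2 of 3 control arrays were well above background. Against TNFα, Ndufa4l2 was lower by 1.36 (limma q = 0.0239, 14.1% of named genes were called in that comparison). Taken the same way this was 1.12-fold, again not a strict lower limit, with only 1 of 3 TNFα arrays well above background. The call against TNFα was lost without TNFα 9 or 14 or TGFß1 7 (q from 0.0618 to 0.0974). With another background correction (normexp, with 50 added to every signal) the difference from control was -0.16 (limma q = 0.404), and the call was lost. Adding 50 shrinks the fold-change of any dim probe, so this setting cannot decide whether the fall holds. Ndufa4 itself was -0.41 with TNFα (95% interval -0.72 to -0.11, limma q = 0.0734) and -0.25 with TGFß1 (-0.55 to 0.05).

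Ndufaf6 encodes another complex I assembly factor, and it was the member called higher with TGFß1. Its level was 0.74, 0.44 and 0.85 on the control arrays, 1.25, 1.17 and 1.27 with TNFα and 1.25, 1.14 and 1.45 with TGFß1. All 6 treated arrays lay above all controls. It was 0.75, 0.45 and 1.03 with IL-1β and 0.77, 0.37 and 0.95 with IL-6, which overlapped the controls. The log2 fold-change was 0.61 with TGFß1 (SE 0.18, limma q = 0.0264), a 1.52-fold rise, and 0.56 with TNFα (SE 0.18, limma q = 0.0606). With the slide as a block the TGFß1 value was 0.57 (q = 0.027), under 1.5-fold, and the call was lost in 10 of the 17 other settings tried.

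The other assembly factors were mixed. Ndufaf4, which acts beside Ndufaf3, was 1.51, 0.52 and 1.49 on the control arrays, 1.67, 1.52 and 2.00 with TNFα and 1.78, 1.81 and 1.92 with TGFß1, above all controls in both. Its difference was 0.67 with TGFß1 (SE 0.25, limma q = 0.0738) and 0.56 with TNFα (SE 0.25, limma q = 0.181). With the slide as a block the TGFß1 difference was 0.74 (q = 0.0377) and passed the test. Control 6 was low at 0.52, and within slide 2, which held that array, the difference was 1.33, against 0.32 within slide 1. This gene was picked after its values were seen.

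Cox5a, Atp5b and Ndufa3 lay past q under 0.05 with TGFß1 but under 1.5-fold, and are named here after their values were seen (30.9% of named genes had a q under 0.05). Cox5a, a matrix-side subunit of complex IV, was 6.70, 6.45 and 6.87 on the control arrays and 7.12, 7.24 and 7.11 with TGFß1, without overlap. The difference was 0.48 (SE 0.12, limma q = 0.013, 1.40-fold). Atp5b, the catalytic beta subunit of ATP synthase, was 0.35 higher by its brightest probe (limma q = 0.0216), while its other probes gave 0.22 and 0.19 (limma q = 0.417 and 0.244). Ndufa3, an accessory subunit of complex I, was 0.45 lower (limma q = 0.0474).

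In the isoform sets of complex IV, the falls of Cox7a1 and Ndufa4l2 were the calls made, and that of Ndufa4l2 has the limits given above. Cox7a2, the widely expressed form of subunit 7a, was -0.04 with TNFα (95% interval -0.39 to 0.31) and -0.03 with TGFß1 (-0.38 to 0.32), next to the falls of Cox7a1. Cox7a2l, which helps join complexes III and IV into supercomplexes, was -0.06 (-0.30 to 0.18) and 0.05 (-0.19 to 0.30). Cox4i1 was -0.17 (-0.50 to 0.17) and -0.04 (-0.38 to 0.30), while Cox4i2, the form known from lung and from cells short of oxygen, was 0.07 (-0.71 to 0.85) and 0.37 (-0.40 to 1.15). The interval of Cox4i2 reached past 1.5-fold in both comparisons, so a change of that size was not shown and not bounded.

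The remaining sets passed no test. Cox6a1 was -0.12 with TNFα (95% interval -0.39 to 0.14) and -0.03 with TGFß1 (-0.29 to 0.23). Cox6a2, its heart and muscle form, was 0.54 (-0.66 to 1.74) and -0.27 (-1.47 to 0.93). For subunit 6b, Cox6b1 was -0.17 (-0.52 to 0.18) and 0.09 (-0.26 to 0.44), and the testis form Cox6b2 was 0.16 (-0.24 to 0.55) and 0.14 (-0.25 to 0.54), so that neither form reached 1.5-fold in either interval. For subunit 7b, Cox7b was 0.09 (-0.15 to 0.33) and 0.27 (0.03 to 0.50). The dim testis form Cox7b2 was 0.02 (-0.85 to 0.90) and -0.72 (-1.59 to 0.15). Cox7b2 was well above background on 2 control arrays and 0 TGFß1 arrays, so its TGFß1 level is only a bound. Cox8a, the widely expressed form of subunit 8, was -0.11 (-0.32 to 0.10) and -0.17 (-0.38 to 0.04).

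The 3 genes Atp5g1, Atp5g2 and Atp5g3 encode the same mature c-ring subunit of ATP synthase behind different import sequences. Atp5g1 was 0.29 with TNFα (95% interval 0.00 to 0.58, limma q = 0.196) and 0.31 with TGFß1 (0.02 to 0.60, limma q = 0.116). Atp5g2 was -0.01 (-0.31 to 0.30) and -0.11 (-0.41 to 0.19). Atp5g3 was 0.07 (-0.14 to 0.27) and 0.27 (0.07 to 0.47, limma q = 0.0531), and its TGFß1 arrays (6.85, 6.80 and 6.85) lay above its controls (6.59, 6.57 and 6.54). None was called.

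**Figure D3:**
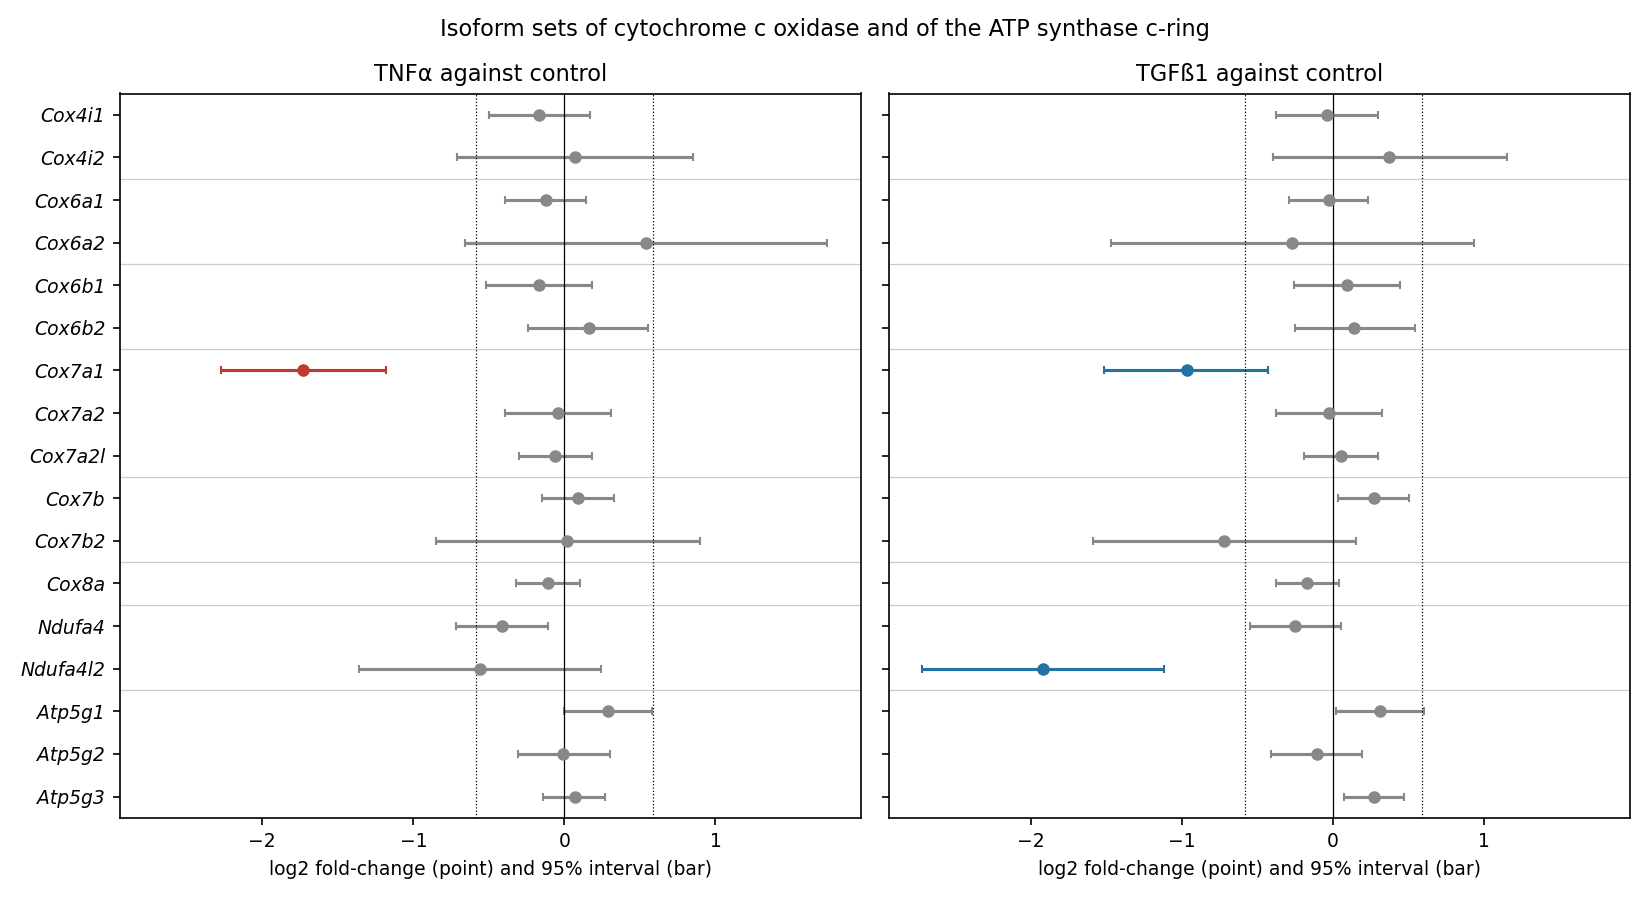
Points are the log2 fold-change against control and bars its 95% interval (horizontal axis) for the 17 tested genes of 8 isoform sets (rows, sets parted by grey lines), with TNFα on the left and TGFß1 on the right. Colored points were called and dotted lines mark 1.5-fold. Cox7a1 stands apart from Cox7a2 and Cox7a2l in both panels, and Ndufa4l2 from Ndufa4 with TGFß1. The TGFß1 level of Ndufa4l2 is only a bound, so its point and interval rest on readings near background.

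Complex II, succinate dehydrogenase, is the only complex encoded wholly in the nucleus, and none of its 4 subunits was called. Sdha, the flavoprotein, ran from 4.41 to 4.60 over the 15 arrays, with differences from control of -0.03 with TNFα (95% interval -0.22 to 0.16) and 0.06 with TGFß1 (-0.13 to 0.25). Sdhb, the iron-sulfur subunit, was 0.06 (-0.19 to 0.30) and 0.06 (-0.18 to 0.30). Of the membrane anchors, Sdhc was -0.42 (-0.83 to -0.01, limma q = 0.181) and -0.31 (-0.72 to 0.10), and Sdhd was 0.12 (-0.09 to 0.33) and 0.26 (0.05 to 0.47, limma q = 0.0689). Sdha and Sdhb were therefore bounded well within 1.5-fold, and Sdhc was not. With IL-1β and IL-6 the differences of the 4 subunits ran from -0.12 to 0.01.

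The level of the members as a group differed between the slides. The median over the 91 members of the difference from the control mean was 0.00, -0.17 and 0.16 on control arrays 1, 6 and 11. It was -0.13, -0.14 and 0.09 with TNFα and -0.09, 0.10 and -0.05 with TGFß1. Within each of these groups the slide 2 arrays lay below the slide 1 arrays. The median was -0.07, 0.01 and -0.01 on IL-1β arrays 5, 10 and 15, and 0.01, -0.01 and -0.05 on IL-6 arrays 3, 8 and 13. The slide 2 array was the lowest with IL-6 but not with IL-1β. Medians were between -0.07 and 0.16 on the 8 arrays of slide 1 and between -0.17 and -0.01 on the 7 of slide 2. The difference of slide 2 from slide 1, fitted beside the groups, was below 0 for 72 of 91 members with a median of -0.15. With the slide as a block the member median was -0.02 with TNFα and 0.04 with TGFß1. Within slide 1 it was 0.02 and 0.01, and within slide 2 it was 0.03 and 0.10. The slide 1 values rest on a single array of each treatment, and the slide 2 values on control 6 as the only control.

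A few members differed between slides by far more. Ndufaf8, a small complex I assembly factor, lay between -1.80 and -1.05 on all 8 arrays of slide 1 and between 0.42 and 0.91 on all 7 of slide 2, a fitted difference of 2.00. Its differences from control, 1.10 with TNFα (SE 0.87) and 1.06 with TGFß1, were the largest above 0 of any member, and neither was called. Cox4i2 lay between -1.96 and -1.44 on slide 1 and between -1.14 and -0.73 on slide 2. Ndufa8, an accessory subunit of complex I, lay between 2.78 and 3.17 on slide 1 and between 3.42 and 3.82 on slide 2. For these 3 genes, all higher on slide 2, the 2 slides did not overlap, whatever the cytokine. Other members were lower on slide 2 without overlap. Ndufaf5 lay between 1.05 and 1.55 on slide 1 and between 0.26 and 0.74 on slide 2, a fitted difference of -0.80. Members without overlap between slides were not counted, and neither was their share of all named genes.

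Cox6a2 varied in another way. The label numbers run from 1 to 15, and each run of 5 holds 1 array of every group. Cox6a2 lay between -1.87 and -0.82 on arrays 6 to 10, between -0.50 and 0.25 on arrays 1 to 5 and between -0.68 and 0.53 on arrays 11 to 15. In every group its lowest array was that of the run from 6 to 10. The labels do not say what the runs are. With run and slide as blocks, Cox6a2 was 0.67 higher with TNFα (q = 0.00659), and with those blocks 5 members were called with TNFα (2 higher and 3 lower) in place of 3, while 17.9% of named genes were called in place of 12.7%.

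**Figure D4:**
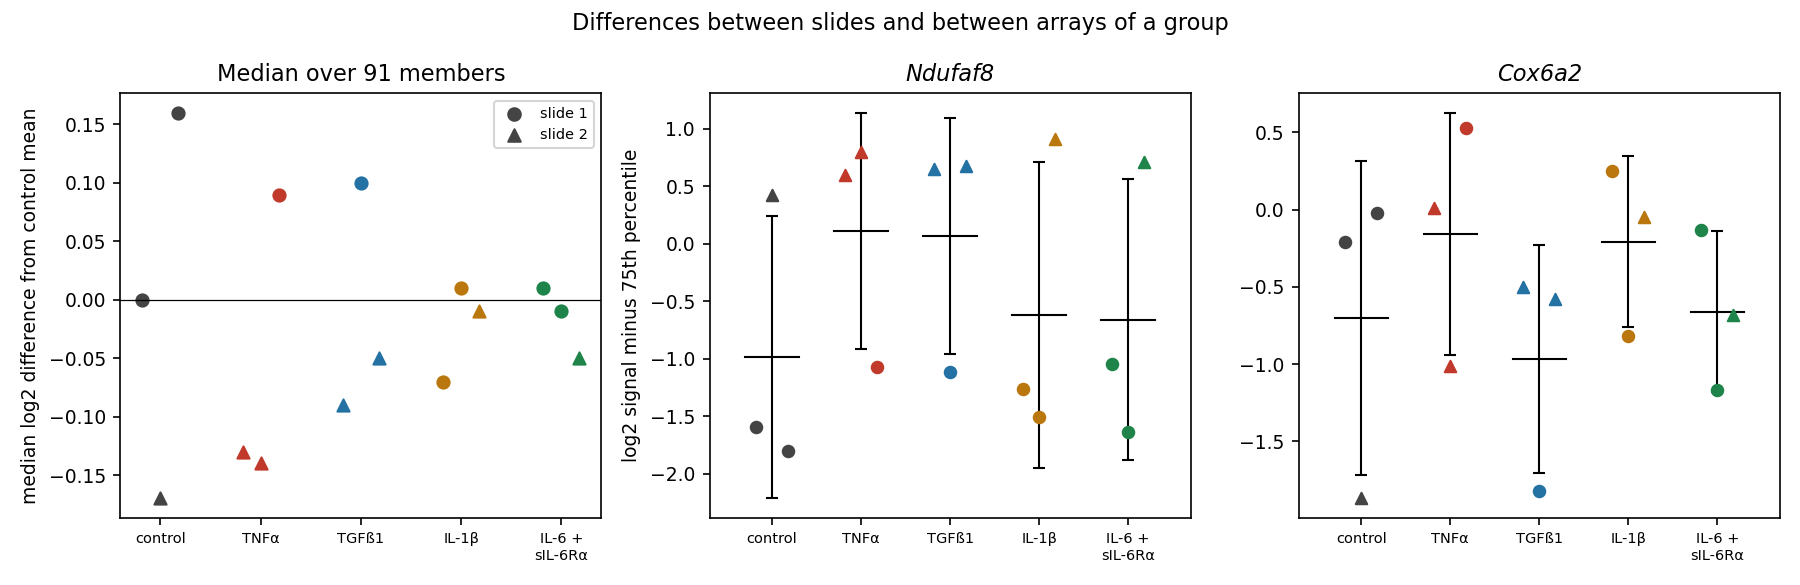
The left panel gives, for each array, the median over 91 members of the log2 difference from the control mean, and the other panels give the log2 signal minus the 75th percentile of Ndufaf8 and Cox6a2 (vertical axes), all by group (horizontal axis). Circles are slide 1, triangles slide 2, and lines with bars in the right panels are the mean ± SD of 3 arrays. Ndufaf8 splits by slide in every group, with a gap from -1.05 to 0.42.

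Cytochrome c and 4 regulators of mitochondrial gene expression were called with TGFß1. Cycs, the electron carrier between complexes III and IV, was 6.57, 6.24 and 6.60 on the control arrays and 7.06, 7.16 and 7.07 with TGFß1. The groups did not overlap, and Cycs rose by 0.62 (SE 0.12, limma q = 0.00224). With TNFα it was 0.36 (SE 0.12, limma q = 0.0619). Of 14 regulators tested, 3 rose and 1 fell with TGFß1, with a median of 0.18, beside the 21.2% of all named genes called in that comparison, and the other 10 did not pass the test. Esrra, a nuclear receptor that acts on respiratory chain genes, rose by 1.19 (limma q = 0.000242), from 3.03, 3.17 and 3.19 in controls to 4.40, 4.06 and 4.49. The coactivator Pprc1 rose by 0.74 (limma q = 0.00985) and Tfb2m, which starts transcription of mitochondrial DNA, by 0.72 (limma q = 0.00138).

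Among the same regulators, the related receptor Esrrg was called lower with TNFα (limma q = 0.0149) and with TGFß1 (-2.56, SE 0.67, limma q = 0.0154). It was well above background on 3 control arrays, 0 TNFα arrays and 1 TGFß1 array, so that with TNFα it is given as at least 5.22-fold lower. Its TNFα arrays were -5.60, -5.49 and -6.40 and its TGFß1 arrays -6.02, -5.19 and -5.43, all below its control arrays of -4.13, -1.74 and -3.08, which differed widely among themselves. Ppargc1a, the coactivator PGC-1α, was not well above background on any array. Nrf1 was -0.02 with TNFα (95% interval -0.35 to 0.31) and 0.12 with TGFß1 (-0.21 to 0.45). Tfam, which packages mitochondrial DNA, was 0.15 (-0.24 to 0.55) and -0.05 (-0.45 to 0.35).

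Counts in the neighbouring lists stand beside 12.7% of all named genes called with TNFα and 21.2% with TGFß1, in either direction. Of 41 further assembly factors tested, 1 fell with TGFß1, Cox20 (-0.60, limma q = 0.00586), which helps mature a complex IV core subunit, and none was called with TNFα. Of 17 genes of the tricarboxylic acid cycle and pyruvate dehydrogenase, 1 rose and 1 fell with TGFß1. Idh3a, a subunit of isocitrate dehydrogenase, rose by 1.03 (limma q = 0.000211), from 3.30, 2.81 and 3.22 to 4.11, 4.12 and 4.19. Pcx, pyruvate carboxylase, fell by 2.10 (limma q = 0.000486), from 2.72, 3.49 and 2.99 to 0.71, 1.09 and 1.12. Neither pair of groups overlapped.

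Of 13 carriers, channels and uncoupling proteins, 2 rose with TGFß1, the import receptor Tomm20 (0.85, limma q = 0.00258) and the import pore Tomm40 (0.90, limma q = 0.00286). With TNFα, 1 rose and 2 fell, beside 12.7% of all named genes called in either direction (21.2% with TGFß1). Tomm40 rose by 0.69 (limma q = 0.021), while the uncoupling proteins Ucp2 and Ucp3 fell by 1.23 and 1.10 (limma q = 0.00889 and 0.00117). Ucp2 was 1.42, 1.01 and 1.30 in controls and -0.12, -0.08 and 0.25 with TNFα, without overlap. No gene of these 5 lists was called with IL-1β or IL-6 (0.355% and 0.0961% of named genes).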

How the data were processed

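The authors scanned 15 one-color arrays, 1 per sample, and deposited the scanner intensity of every spot from Agilent Feature Extraction 10.7.3.1, as the submitters' processing notes name it, together with a table of the processed intensity. That table and the scanner files differed by 0 at most. Spots with outlier flags were left out, repeated spots of a probe were averaged, and log2 processed signal minus the 75th percentile of the non-control spots of the array was used. Probes were named through RefSeq transcripts (33767 of 56605). Probes that all 3 arrays of some group read well above background were tested (29334), on all 15 arrays in 1 fit with limma 3.58.1 (R 4.3.3), a moderated two-sided test with Benjamini-Hochberg adjustment over all probes, and called at q under 0.05 and 1.5-fold. The study's methods name limma and the same q-value threshold, and its text adds the same fold-change and describes 3 independent experiments, which the labels do not tie to arrays. The code was tested on simulated data.

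Ndufa13 lacked TNFα 4, where its spot was flagged. Slides were read from the scanner headers. The members, gene lists and markers were chosen with earlier results of these data known. Named members were the 10 called members with the largest change in each comparison with control, all genes of the isoform sets and complex II, and, of the pathway lists, the called genes with the largest rise and fall in each list and comparison with Ppargc1a, Nrf1, Tfam and Cycs. Ndufaf8, Ndufa8, Ndufaf5, Pprc1, Tfb2m, Tomm20 and Ucp3 fall outside these rules and were chosen after their values were seen, as were the genes said above to be. Alternatives were the background correction, the scaling, the value table, the filter on dim probes, the mean of a gene's probes, fits of 6 arrays, slide and run blocks and leaving out each array. Motif searches used the 250 bases before each RefSeq start. The number of arrays, 3 per group, limits the precision. Mitochondrially encoded subunits were not analysed here.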

Additional observations from a re-analysis of the deposited data

How the results depend on the processing

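No result changed its direction past the threshold in any setting. With TNFα the count of called members was 3 in every whole-array setting except with run and slide as blocks (5), and 2 to 3 with an array left out (2 without TNFα 4). With TGFß1 the count of 5 was 3 with normexp, 3 with the 6 arrays of both groups, and 3 to 7 with an array left out (3 without control 6, TGFß1 2 or TGFß1 12). It was 6 with quantile normalization and with the run block. It was 4 with the 75th percentile over probes well above background on every array, with only those probes tested, and with no filter on dim probes. The TGFß1 median of -0.03 was -0.18 with quantile normalization, where the median of all genes was -0.01, and with arrays left out it ran from -0.11 to 0.07, above 0 without control 11, TGFß1 2 or TGFß1 12. With an array left out, the TNFα median ran from -0.15 to 0.02 and those of IL-1β and IL-6 from -0.11 to 0.06.

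For TNFα against TGFß1 the count of 1 was 0 with normexp, 0 with no filter on dim probes, 0 with only probes well above background on every array, 2 with the slide block, 3 with the run block, 3 with run and slide as blocks, and 0 to 1 with an array left out (0 without TNFα 9, TNFα 14 or TGFß1 7). For IL-1β against TNFα the count of 2 was 1 with no filter on dim probes and 0 to 2 with an array left out (0 without TNFα 4, TNFα 9 or IL-1β 10, and 1 without TNFα 14). It was 3 with quantile normalization, with the run block, and with run and slide as blocks. The F-test over the 5 groups passed for 14 members (15.4%) with quantile normalization, where 32.4% of named genes passed, and 26 (28.6%) with run and slide as blocks, where 67.1% did, in place of 6. The cause of these differences was not tested. IL-1β and IL-6 had 0 called members in every setting.

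The groups share no label number. As a replicate block, runs of 5 numbers were used. Of pairs of arrays from different groups, 12 of the 30 within a run deviated together (r over 0.1), against 28 of the 60 across runs, and in 30 of 30 against 2 of 60 once the slide was removed. The run block alone gave 3 calls with TNFα and 6 with TGFß1. Of 1618 values of named members in other settings, 16 lost and 2 gained a call, 0 reversed, and 21 without a call moved by more than the spread between arrays. Signal near background limited Ndufa4l2 and Cox7b2.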

Other observations

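Agreement between probes of the same gene was measured for the 21 members with more than 1 tested probe. The gap between the lowest and the highest log2 fold-change of a gene's probes had a median of 0.13 with TNFα and 0.10 with TGFß1. It was widest for Ndufaf5, a complex I assembly factor that modifies a core subunit, at 0.54 and 0.55. No probe of these genes was called in either comparison, and the called members each had 1 probe, so their values rest on a single probe.

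The spread between arrays of the same group had a median of 0.16 log2 units over the 91 members. It was over 0.5 for 3 of them, Ndufaf8 (1.17), Cox6a2 (0.74) and Cox7b2 (0.54).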
